A study of Mus musculus with 68 samples.

Results

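The immediate-early response genes described here are Egr1, Fos, Fosb, Jun, Junb, Jund, Ier2, Dusp1, Atf3 and Nr4a1, 10 genes of the 18194 that the array annotation ties to at least 1 probe set of their own. They were chosen by name, and all 12 probe sets annotated to them were read. The probe set with the highest mean log2 signal stood for each gene, and Jun and Jund had a second. In 68 single cells of the CD1 mouse cerebral cortex, amplified cDNA of each cell was hybridized to 1 Affymetrix array. The cells comprised 30 from E11 and 28 from E16 cerebral wall, 3 apical progenitors (APs) from E12, 3 APs from neurospheres, which were E11 cells kept 3 days in vitro with EGF and FGF2 at 20 ng per ml each, and 4 NICD/p18 APs. The NICD/p18 APs were taken from E14 embryos 3 days after electroporation at E11 with pCAG-NICD, the intracellular domain of Notch1 behind a ubiquitous promoter, and pEF-p18, the Cdk inhibitor Cdkn2c. Cells taken from tissue were freed with 0.25% trypsin for 5 min and picked by hand, and progenitors were selected by qPCR of marker genes.

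Immediate-early genes are transcribed within minutes of a stimulus, without new protein synthesis, when kinases of the MAPK pathways act on factors such as SRF, ELK1 and CREB1 that already sit at their promoters. Growth factors, neuronal activity and tissue dissociation are all known to induce them. Most of the products are transcription factors (the zinc-finger protein Egr1, the AP-1 subunits of the Fos and Jun families, the bZIP protein Atf3 and the orphan receptor Nr4a1), whereas Dusp1 is a phosphatase that switches MAP kinases off again.

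Signals were quantile normalized, and a gene was counted in a cell when its signal reached the 20-copy level of 842, the median signal over the 68 arrays of the phe RNA that had been spiked into every tube at 20 copies. This level is a soft one: the phe signal itself ran from 13.1 to 6636 between cells, and the 5-copy spike thr reached the level in 3 of 68 cells, the 100-copy spike dap in 65 and the 1000-copy spike lys in 68. In group comparisons, signals below the level were set to it, and a difference of 1 on the log2 scale (2-fold) between group means was taken as the limit for naming a gene. No label ties a cell to an embryo or a dish, so each group of cells is 1 sample, no test between groups was possible, and every SD given is between cells. The cell E11-31i, which the study set aside for low quality, was left out of comparisons, leaving 29 E11 cells. The 10 E12, neurosphere and NICD/p18 arrays had all been scaled to a trimmed mean of 500.0, the 58 E11 and E16 arrays to none (47.5 to 297.5), so between these sets processing and condition cannot be told apart. AP markers reached the level in every one of the 10 APs (5 to 9 of 10 markers), and cycling markers numbered 5 or 6 of 6 in the E12 and neurosphere APs but 0 to 2 in the NICD/p18 APs. Of 8 neuron markers, 2 to 4 reached the level in E12 APs and 1 or 2 in neurosphere APs, but 2, 6, 8 and 1 in the NICD/p18 APs M5A, M5K, M6C and M6H. Neurod6 (by 1.86 on the log2 scale), Map2 (1.51) and Dcx (1.12) were higher in NICD/p18 than in E12 APs. Cdkn2c itself stayed between 57.1 and 469 in the NICD/p18 APs, and the sources used here do not say whether its probe set lies in the plasmid's cDNA.

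Of the 10 genes, 8 reached the 20-copy level in at least 1 of the 68 cells and 2, Junb and Atf3, in none, with signals of Junb up to 194 and of Atf3 below 10% of the level in all 57 E11 and E16 cells. At E11 and E16 the genes were scattered over cells, with 0 to 4 per cell and a median of 1 at both stages. No gene was reached in 10 E11 and 5 E16 cells, and the 4 genes of cell E11-32J and of cell E16-81L were the most. Over these cells the number correlated weakly and negatively with the number of all genes over the level (Spearman's rho -0.30, 57 cells) and with the trimmed mean of the deposited signals (-0.31). Quantile normalization makes the number of genes over the level nearly equal between cells (2522 to 2840). That number therefore does not measure how completely a cell was amplified. The trimmed mean was taken before this normalization, and what lies behind its correlation was not tested.

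**Figure D1:**
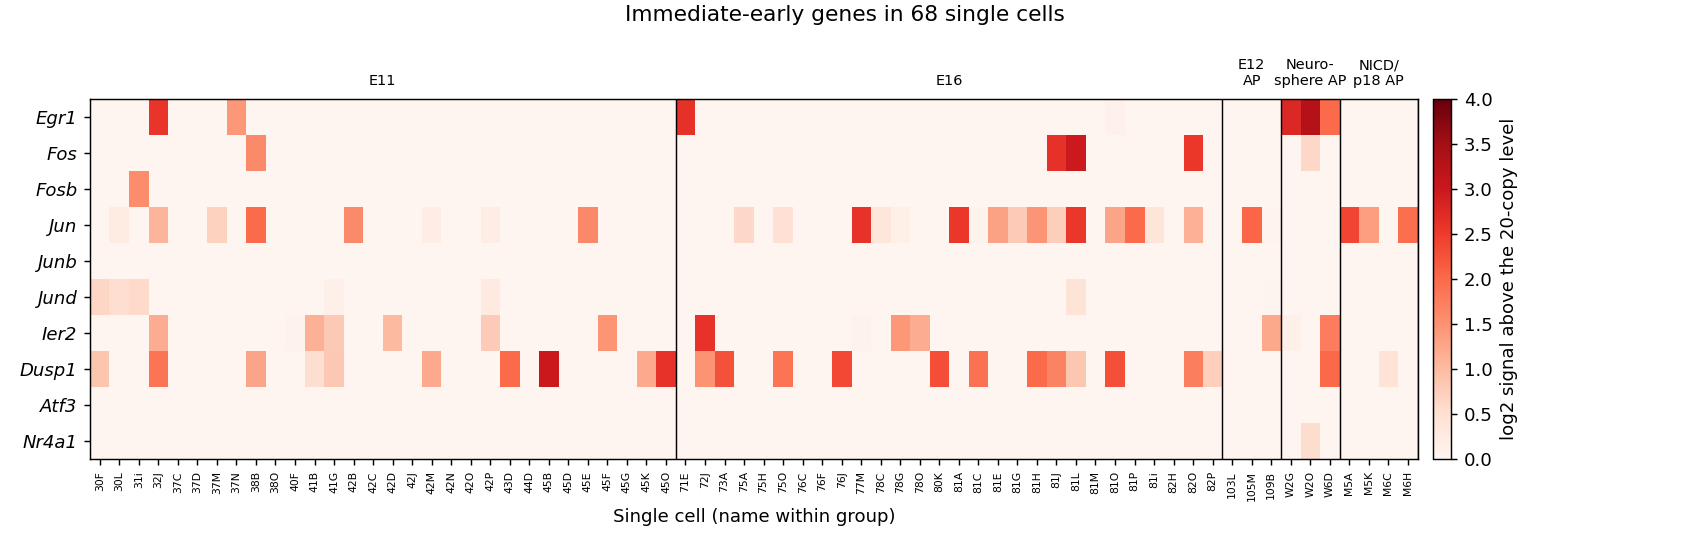
Each column is a single cell and each row a gene. Colour gives the log2 signal above the 20-copy level of 842, the palest shade being at or below it. Egr1 stands out in all 3 neurosphere APs, Jun in a run of E16 cells whose names begin with 81, and Junb and Atf3 stay palest throughout.

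The promoters of Fos, Jun and Dusp1 are shown because all 4 E11 and E16 cells with Fos also had Jun and Dusp1, as described further on. Each sequence is the RefSeq window of GRCm38.p6 from 250 bases before the start of transcription to 50 after it, read in the direction of the gene. Capitals mark matches to 5 motifs searched on both strands: the CArG box bound by SRF, the cyclic AMP element TGACGTCA, the AP-1 site TGANTCA, the ETS site CCGGAAG and the TATA sequence TATAAA. The windows lie at chr12:85473640-85473939 on the plus strand (Fos), chr4:95052173-95052472 on the minus strand (Jun) and chr17:26508423-26508722 on the minus strand (Dusp1).
Fos: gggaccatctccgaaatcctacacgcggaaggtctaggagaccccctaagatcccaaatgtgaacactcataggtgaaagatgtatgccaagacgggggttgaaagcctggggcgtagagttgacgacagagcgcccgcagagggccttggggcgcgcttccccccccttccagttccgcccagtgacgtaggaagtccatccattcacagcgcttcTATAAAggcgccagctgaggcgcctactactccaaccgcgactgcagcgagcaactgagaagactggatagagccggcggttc
Jun: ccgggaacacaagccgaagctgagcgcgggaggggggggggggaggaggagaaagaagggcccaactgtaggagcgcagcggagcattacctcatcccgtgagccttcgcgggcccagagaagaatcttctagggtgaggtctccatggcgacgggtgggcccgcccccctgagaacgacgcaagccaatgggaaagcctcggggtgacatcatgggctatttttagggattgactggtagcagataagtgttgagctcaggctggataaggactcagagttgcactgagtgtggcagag
Dusp1: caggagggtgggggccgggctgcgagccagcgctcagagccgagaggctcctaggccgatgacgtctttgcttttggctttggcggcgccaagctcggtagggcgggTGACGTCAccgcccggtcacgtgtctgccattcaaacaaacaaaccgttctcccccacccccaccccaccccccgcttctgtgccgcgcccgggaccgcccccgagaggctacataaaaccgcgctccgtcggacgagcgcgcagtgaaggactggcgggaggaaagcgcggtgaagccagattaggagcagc
The Fos window holds TATAAA 33 bases before the start, a motif found in 13.6% of 32851 promoter windows of this length. The Dusp1 window holds TGACGTCA 143 bases before the start, found in 1.79% of windows. None of the 5 motifs is in the Jun window. Of the 8 of the 10 genes with a window, 2 held TATAAA (Fos and Junb), 1 held TGACGTCA, and none the CArG box (1.63% of all windows), TGANTCA (7.81%) or CCGGAAG (8.86%). The Junb match does not lie before the start of transcription as that of Fos does, but begins at it. The matches are of letters in a short window and say nothing of binding. Sites further than 250 bases before the start, or with letters other than those searched, were not looked for. A motif missing here may therefore still be present at the gene.

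Egr1, a zinc-finger transcription factor induced by growth factors through the MAPK pathway, was the gene that set the neurosphere APs apart. Its signal was 5695, 8237 and 3324 in the neurosphere cells W2G, W2O and W6D. In the E12 APs it was 17.2, 11.8 and 22.8, and in the NICD/p18 APs 4.25, 13.3, 9.86 and 1.73. Every neurosphere cell was thus over the 20-copy level and every one of the 7 other APs far below it, with no overlap. Among cells taken directly from tissue, Egr1 reached the level in 2 of 29 E11 cells (lowest 0.672, median 14.6, highest 5029) and in 2 of 28 E16 cells (lowest 0.914, median 13.6, highest 5219). The signals of these 4 cells were 5029 in E11-32J, 2279 in E11-37N, 5219 in E16-71E and 898 in E16-81O, so that 2 of them lay within the range of the neurosphere cells, while 51 of the 57 lay below 10% of the level.

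With signals set to no less than the level, mean Egr1 was 12.39 ± 0.66 on the log2 scale in neurosphere APs (SD, 3 cells) against 9.72 in both E12 and NICD/p18 APs, whose cells were all at the floor. The difference of 2.68 is at least 6.39-fold, and it placed Egr1 at rank 5 of 10127 genes against E12 and at rank 7 against NICD/p18. Against E11 (9.86 ± 0.54, 29 cells) the difference was 2.54, at rank 6. A pattern of 3 of 3 neurosphere cells and 0 of the 7 other APs was held by 6 of 10127 genes (0.0592%). Only 2 of these (0.0197%), Egr1 and the oligodendrocyte lineage factor Olig1, were also over the level in no more E11 and E16 cells than Egr1 was. The pattern and its cut were taken from Egr1's own values, so Egr1 meets both by construction and the shares are a description. In each cell held to its own phe spike as deposited, the counts for Egr1 were the same in all 5 groups. The neurosphere cells differ from the others in culture, growth factors and time since dissection at once, and these cannot be told apart.

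**Figure D2:**
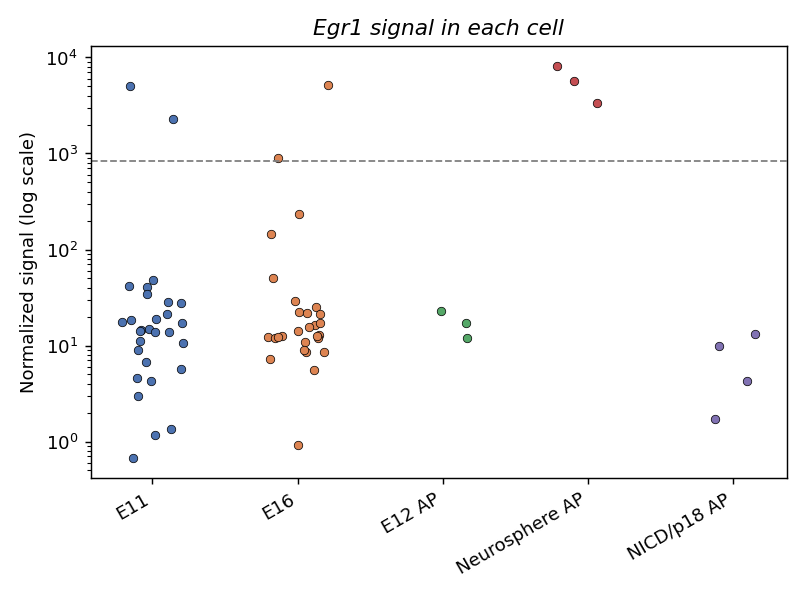
Each point is the normalized Egr1 signal of a cell on a log axis, by group. The dashed line is the 20-copy level of 842. All 3 neurosphere APs lie above it (3324 to 8237), none of the E12 or NICD/p18 APs does, and 2 cells do at each of E11 and E16.

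The 4 tissue cells with Egr1 were not alike in other respects. Cell E11-32J carried 7 of 8 neuron markers, 1 of 10 AP markers and 0 of 6 cycling markers over the level, together with Jun, Ier2 and Dusp1. Cells E11-37N, E16-71E and E16-81O carried 5 to 7 AP markers with 4 to 7 of 7 intermediate progenitor markers. The latter are genes such as Eomes that mark cells leaving the AP state. In the same order these cells also carried 3, 4 and 5 neuron markers and 6, 4 and 5 cycling markers. Medians over all E11 cells were 5 AP, 1 intermediate progenitor, 1 neuron and 5 cycling markers. Over all E16 cells they were 7, 1, 2 and 5. None of the 4 was over the level for Fos.

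Fos, the AP-1 subunit that pairs with Jun proteins, was rare and high. It reached the level in 1 of 29 E11 cells, E11-38B with 2565, and in 3 of 28 E16 cells, E16-81J with 5243, E16-81L with 6596 and E16-82O with 4934. Only 1 other E11 or E16 cell exceeded 10% of the level. Among the 10 APs it was over the level in the neurosphere cell W2O alone (1274), with 3.19 and 21.5 in the other neurosphere cells and at most 24.2 in the E12 and NICD/p18 APs. The 4 tissue cells with Fos carried 6 to 8 of 10 AP markers, 0 to 2 intermediate progenitor markers and 0 to 2 neuron markers, beside medians of 7, 1 and 2 over all E16 cells and of 5, 1 and 1 over all E11 cells. Held to each cell's own phe spike as deposited, the neurosphere cell over the level for Fos was W6D, whose phe signal was the lowest of the 3, in place of W2O.

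All 4 tissue cells with Fos were also over the level for Jun and for Dusp1. Jun was 3301 in E11-38B, 1401 in E16-81J, 4945 in E16-81L and 1836 in E16-82O. Dusp1 was 2040, 2720, 1505 and 2828 in the same order of cells. E16-81J and E16-81L belong to the 11 E16 cells whose names begin with 81, of which 10 were over the level for Jun and 5 for Dusp1. Over all 57 E11 and E16 cells, Jun was over the level in 24, Dusp1 in 22 and both in 10. As a description over these cells, which share the amplification method and array scale, the correlation of floored log2 signals centred on each stage was 0.38 for Fos and Jun, 0.20 for Fos and Dusp1 and -0.03 for Jun and Dusp1. It rests on 4 cells with Fos, and without the floor the value for Fos and Jun was 0.095. Across the 15 pairs of the 6 genes that varied, r ran from -0.16 to 0.38 with a median of -0.01. Most cells are tied at the floor for most of these genes, which limits any r, and Fosb, Junb, Atf3 and Nr4a1 have none.

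**Figure D3:**
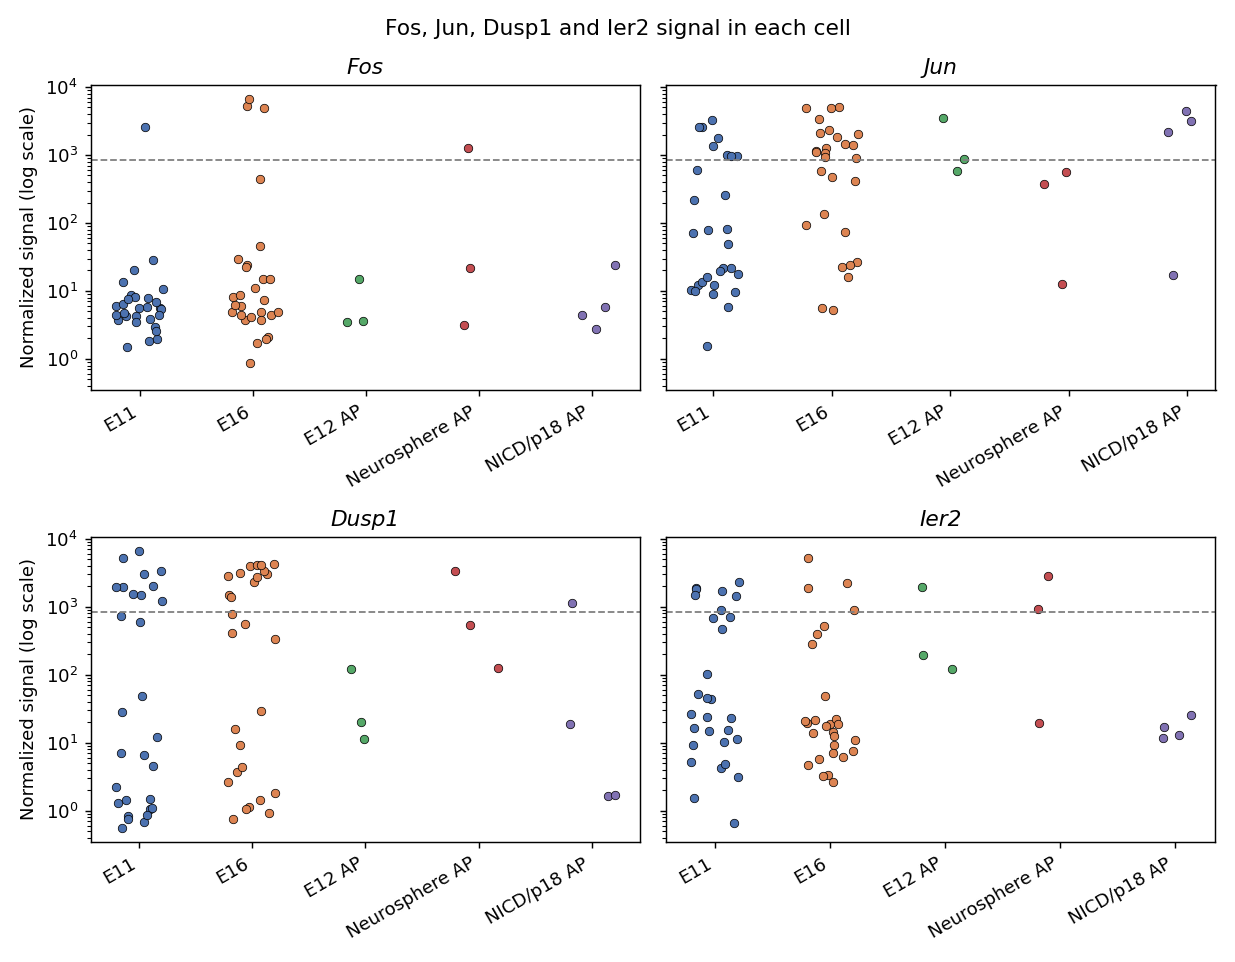
Normalized signal of Fos, Jun, Dusp1 and Ier2 in each cell on a log axis, by group, with the 20-copy level of 842 as a dashed line. Fos has few cells above the line and most near the bottom, Dusp1 is above it in 22 and below 10% of it in 29 of 57 E11 and E16 cells, and no neurosphere AP reaches the line for Jun.

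Jun, the partner that binds DNA with Fos, was the member most often over the level. It was found in 8 of 29 E11 cells (lowest 1.52, median 48.7, highest 3301) and 16 of 28 E16 cells (lowest 5.17, median 1002, highest 5170). The group means of 9.98 ± 0.56 and 10.38 ± 0.87 on the log2 scale differ by 0.40, with a pooled SD of 0.73 between cells. Of the 16 E16 cells with Jun, 10 belonged to the 11 cells whose names begin with 81, and 6 to the 17 others. What that number stands for is not given in the labels. Without those 11 cells, a choice made after seeing the data, the difference between E16 and E11 was 0.05.

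In the E12 APs Jun was 573, 3450 and 876, in the neurosphere APs 372, 560 and 12.5, and in the NICD/p18 APs 4420, 2152, 17.2 and 3202. It was thus over the level in 2 of 3, 0 of 3 and 3 of 4 cells, and the cells overlapped between neurosphere and NICD/p18 APs because of M6C at 17.2. The neurosphere mean of 9.72, all at the floor, was lower by 1.42 on the log2 scale than the NICD/p18 mean of 11.14 ± 1.04, a 2.67-fold difference of floored means, and lower by 0.70 than the E12 mean of 10.42 ± 1.16. NICD/p18 APs were 0.72 above E12 APs, with a pooled SD of 1.09 between cells. The second Jun probe set was over the level in 13 of 67 cells against 29 for the first, and in 8 by both. Among the NICD/p18 APs it was high in M5A (1789) and in M6C (1090), the cell in which the first was low, and it was over the level in no neurosphere or E12 AP. With the probe sets averaged, the neurosphere APs were lower by 0.89, no longer 2-fold. Neuron markers moved with this comparison (Neurod6 lower in neurosphere than in NICD/p18 APs by 1.96, Dcx by 1.05), and their part in the Jun difference was not tested. By cell, Jun was over the level in M5A and M6H, which had 2 and 1 of 8 neuron markers, and in M5K, which had 6.

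Jund, a Jun family subunit held at a steadier level in many cell types, lay close under the level in most cells. Its signal was between 10% of the level and the level in 41 of 57 E11 and E16 cells, and over it in 4 E11 cells and 1 E16 cell, with a highest value of 1313. In the 10 APs it ran from 32.1 to 853, only the third E12 AP being over. Held to its own phe spike in each cell, 7 rather than 1 of the E16 cells were over, so that the count for Jund depends on where the level is set. Its second probe set was over the level in no cell. Fosb, the Fos relative, was over the level only in the excluded cell E11-31i (2492), and reached at most 26.8 in the other E11 cells and 558 in E16 cells.

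Dusp1, the phosphatase that inactivates MAP kinases and so ends the signal that induces this class of genes, was split between cells. It was over the level in 10 of 29 E11 cells (lowest 0.558, median 12.3, highest 6711) and in 12 of 28 E16 cells (lowest 0.758, median 486, highest 4303), and below 10% of it in 29 of the 57. The stage means of 10.25 ± 0.87 and 10.48 ± 0.96 differ by 0.23, against a pooled SD of 0.92. In neurosphere APs the signal was 124, 539 and 3394, in E12 APs 122, 20.3 and 11.4, and in NICD/p18 APs 1.62, 18.7, 1137 and 1.70. The neurosphere mean was above the E12 mean by 0.67 and above the NICD/p18 mean by 0.56 on the log2 scale, both from cell W6D alone among the neurosphere APs and both below the limit of 1.

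Ier2, a nuclear protein named for its immediate-early induction, was over the level in 7 of 29 E11 cells (highest 2327) and 4 of 28 E16 cells (highest 5175), with medians of 26.7 and 18.1. It was 917, 19.8 and 2837 in neurosphere APs, 195, 123 and 1973 in E12 APs and 11.8 to 25.6 in NICD/p18 APs. Neurosphere APs were 0.62 above NICD/p18 APs, about the pooled SD of 0.62, and 0.22 above E12 APs. Nr4a1, an orphan nuclear receptor, was over the level in 1 of 68 cells, W2O (1230), the neurosphere cell that also had the highest Egr1 and, at this level, the only one with Fos. Held to its own phe spike, W2O was not over for Nr4a1 and W6D was. At the common level the neurosphere APs shared Egr1 and differed in the rest: W2G had Ier2 beside it, W2O had Fos and Nr4a1, and W6D had Ier2 and Dusp1. By the probe set that stood for each gene, exactly 1 gene was over the level in each NICD/p18 AP, Jun in 3 and Dusp1 in M6C. By either Jun probe set, Jun was over in all 4. Held to its own phe spike, M6C was not over for Dusp1.

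**Figure D4:**
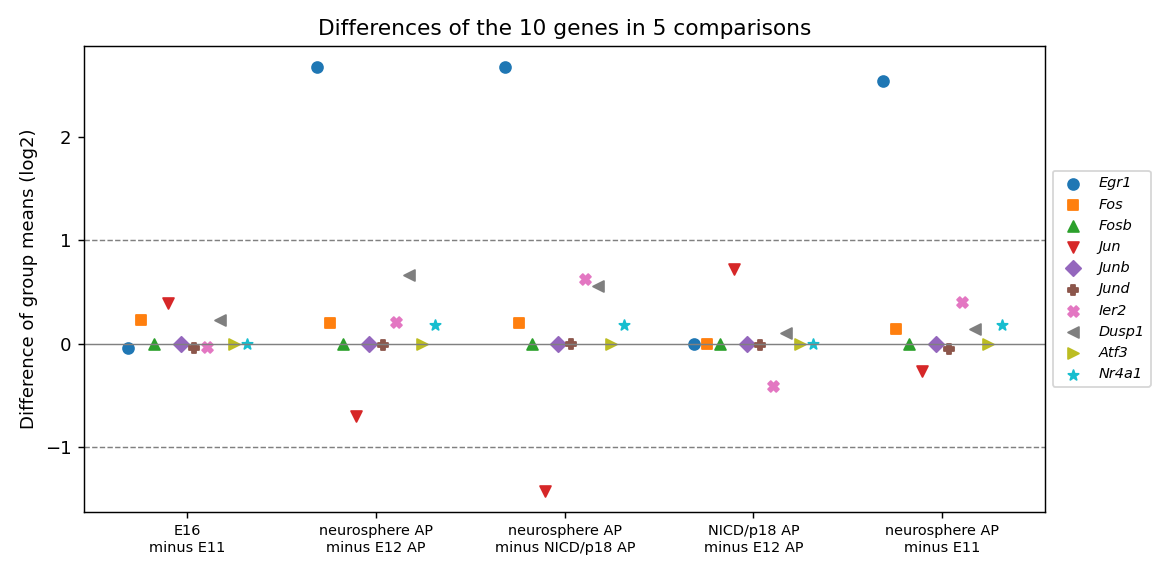
Difference between group means of floored log2 signal for each of the 10 genes in 5 comparisons. Dashed lines mark 2-fold. Only Egr1 (2.54 to 2.68, neurosphere against E12, NICD/p18 and E11) and Jun (-1.42, neurosphere against NICD/p18) lie past them.

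Counted over the 10 genes, the limit of 2-fold was passed by few in any comparison. Junb and Atf3 were below the level in every cell and could not pass it, whereas the shares of all genes are over those that reached it. From E11 to E16 none was higher and none lower, where 0.494% and 0.365% of 10127 genes were. Neurosphere APs had 1 gene higher (Egr1) and none lower than E12 APs, where the shares of all genes were 2.17% and 2.24%. Against NICD/p18 APs, 1 was higher (Egr1) and 1 lower (Jun), with 3.8% and 2.92% of all genes. NICD/p18 APs had none higher and none lower than E12 APs, with 3.3% and 4.3% of all genes. Against E11, neurosphere APs had 1 higher and none lower, with 1.82% and 0.889% of all genes. The median difference over the 10 genes was 0.00, 0.09, 0.09, 0.00 and 0.07 on the log2 scale in these comparisons, and over all genes it was between -0.02 and 0.00. The comparisons with neurospheres share the same 3 cells.

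At the floor used here, a list of 38 other immediate-early genes gave no second gene like Egr1. Other floors were not tried on this list. All 38 were measured, 24 reached the level in at least 1 cell, and none was 2-fold higher in neurosphere APs than in E12 APs, NICD/p18 APs or E11 cells. Those past the limit were lower, 2 of the 24 against E12 APs (2.24% of all genes that reached the level) and 1 of the 24 against NICD/p18 APs (2.92%). Btg1, an antiproliferative protein, was 151, 81.1 and 13.99 in neurosphere APs, 4495, 5203 and 950 in E12 APs, and 2736, 3920, 3891 and 25.3 in NICD/p18 APs, lower in neurosphere APs by 1.74 and 1.53 on the log2 scale. M6H was the NICD/p18 cell that overlapped with the neurosphere APs, and the part of the neuron markers of M5K and M6C was not tested. Ier5, a regulator of the heat-shock response, was 1.19, 17.7 and 11.4 in neurosphere APs against 1534, 1447 and 2382 in E12 APs, lower by 1.05. Both genes were over the level in 3 of 3 E12 and 0 of 3 neurosphere APs. That pattern, taken from their own values, was held by 0.612% of the 10127 genes. At E11 and E16 these genes were over the level in 17 and 22 cells (Btg1) and 16 and 14 cells (Ier5).

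Dusp6, the phosphatase that restrains ERK downstream of FGF receptors, is named after its values were seen. It was over the level in 2 of 3 neurosphere APs (W2O 1299, W6D 3199, W2G 0.676) and in none of the other cells compared, where its highest signal was 732. Its mean difference from E12 stayed below the limit because W2G was at the floor. Ccn1, a secreted matrix protein and target of SRF, also named after its values were seen, was over the level in 0 of 29 E11 and 13 of 28 E16 cells. Phlda1, also named after its values were seen, lay just under the level in all 3 neurosphere APs (620 to 741), with 3.49, 1.00 and 9.27 in E12 APs. In NICD/p18 APs it was 2079 in M5A, over the level and above every neurosphere AP, and 65.3, 66.8 and 5.18 in the others. It was also over the level in 1 E11 cell and 3 E16 cells.

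**Figure D5:**
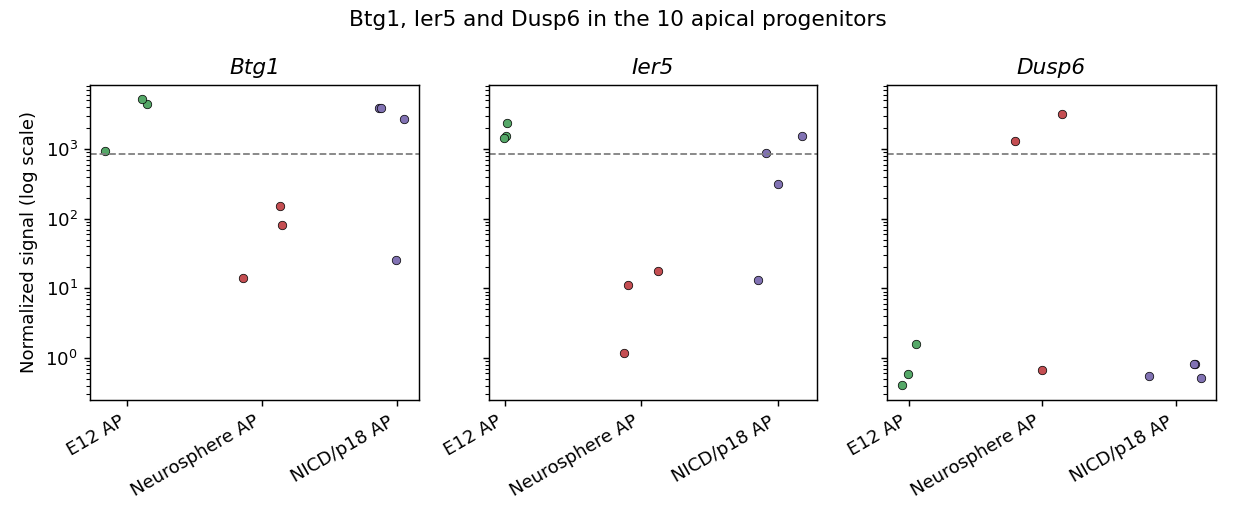
Normalized signal of Btg1, Ier5 and Dusp6 in each of the 10 APs on a log axis, with the 20-copy level of 842 as a dashed line. Btg1 and Ier5 are below the line in all 3 neurosphere APs and above it in all 3 E12 APs, and Dusp6 is above it in 2 neurosphere APs only.

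Of 20 kinases and factors upstream of these genes, 16 were measured and none differed by 2-fold in any comparison. Srf, the factor of the CArG box, was over the level in 6 E11 and 6 E16 cells and in no neurosphere or E12 AP, and Creb1 in 16 and 13 cells and in 1 of 3 neurosphere APs. Of 14 heat-shock and unfolded-protein genes, 13 were measured. None was 2-fold higher in neurosphere or NICD/p18 APs than in E12 APs, or at E16 than at E11. Every cell had been dissociated, and stress during dissociation was not tested. The chaperones Hspa8 and Hsp90aa1 were over the level in every cell compared. Hspa1a and Hspa1b, stress-induced genes that are near-identical in sequence and may share signal, were over the level in none. Hspd1, the mitochondrial chaperonin, was lower at E16 than at E11 by 1.32 on the log2 scale (20 of 28 against 28 of 29 cells over the level), and Hspa5, the chaperone of the endoplasmic reticulum, was lower in neurosphere than in E12 APs by 1.08. Markers of vessels, microglia, blood and mesenchyme were over the level in at most 2 cells of any group, and the 4 interneuron markers in none.

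The genes whose pattern over the 57 E11 and E16 cells was most like these were found among 5193 genes over the level in at least 10 of the cells. For the mean of the 10 genes they were Mcl1, an antiapoptotic protein (r = 0.56), Eps15 (0.50) and Mpv17l2 (0.49). For Fos they were Snhg14 (0.68), Fanca (0.59) and Pias1 (0.55), and for Jun they were Arfgap1 (0.62), Oxct1 (0.52) and Lrrfip2 (0.51). These are the highest of many correlations between sparse signals and are given as a description.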

How the data were processed

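Single cells were collected, amplified with oligo-dT priming and hybridized by the authors to Affymetrix mouse arrays, with 4 Bacillus RNAs spiked into each tube. The deposited values are MAS5 intensities on a linear scale for 45101 probe sets (version not given in the sources used here). Columns of other samples numbered 0. E14 arrays of the study were not analysed here. Of the probe sets, 35890 are in the platform's gene table, 34958 with 1 gene symbol, 932 with several and 9211 not listed. No 2 arrays held identical values. All 68 arrays were quantile normalized together, floored at the 20-copy level and log2 transformed (Python 3.11.15, numpy 2.4.6, pandas 2.3.3, scipy 1.17.1, matplotlib 3.10.9). Genes over the level in at least 1 cell, 10127 in all, formed the background. Group differences are between means over cells, and the number of arrays limits their precision. The calculation was tested on simulated data. This test is not taken to show how the calculation behaves for genes at the floor in most cells, such as Egr1 and Fos.

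The 10 genes, the lists and the comparisons were chosen with earlier results of these data known. All 10 genes are named. From the lists, at most 3 genes in each direction of a comparison are named, those with the largest difference past 2-fold, and the 3 genes most like each pattern by Pearson's r. Dusp6, Ccn1, Phlda1, Srf, Creb1, Hspa8, Hsp90aa1, Hspa1a and Hspa1b are named outside this rule. Types of E11 and E16 cells were not used, since the labels do not give them. Promoters are from RefSeq, GRCm38.p6, which had a window for 8 of the 10 genes. Alternatives covered scaling (deposited, lys spike, trimmed mean), the floor, the probe set, means over cells and each cell left out.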

Additional observations from a re-analysis of the deposited data

Results flagged for a closer look

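In the group of 4 NICD/p18 APs, Dusp1 was at 1137 in cell M6C while the other 3 cells were at 1.62, 18.7 and 1.70, all below the 20-copy level. After flooring, the gap of M6C to the others was the whole range, above Dixon's critical value for 4 samples. Of 10 genes examined in this way 1 was found. Only Jun and Dusp1 varied among these cells after flooring, and the other genes could not be marked. The usual rate of about 1 in 20 by chance does not hold for values tied at a floor. Any gene over the level in exactly 1 of the 4 cells is marked, since the others are tied at the floor. M6C was also the NICD/p18 cell with low signal of the first Jun probe set (17.2) and high signal of the second (1090), and it carried 8 of 8 neuron markers over the level against 1 to 6 in the other 3 cells. Held to its own phe spike, M6C was not over the level for Dusp1.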

How the results depend on the processing

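Egr1 was 2-fold or more higher in neurosphere APs than in E12, NICD/p18 and E11 cells under every alternative run except a floor 4 times the 20-copy level, where its differences were 0.68, 0.68 and 0.66 on the log2 scale. With each of the 10 APs left out in turn its difference from E12 and from NICD/p18 ran from 2.37 to 3.02, and that from E11 from 2.23 to 2.89. At the 4-fold floor no gene of the 10 was higher or lower in any neurosphere comparison (0 and 0). With all probe sets of a gene averaged, 0 genes were lower in neurosphere than in NICD/p18 APs, the second Jun probe set being below the level in 2 of the 4 NICD/p18 cells.

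Other counts depend on the floor and the scale. In signals as deposited, neurosphere APs had 2 genes higher and 1 lower than E12 (median 0.36), 3 higher than NICD/p18 (median 0.41) and 3 higher than E11 (median 0.57), Dusp1, Ier2 and Jun being those added. Scaled to the lys spike, 2 genes, Egr1 and Ier2, were higher than in NICD/p18 and 2 than in E11. With the floor 4 times lower, 1 gene (Jun) was higher at E16 than at E11. At this floor neurosphere APs had 2 higher and 1 lower than E12 (median 0.42), 3 higher than NICD/p18 (median 0.42) and 2 higher than E11, and NICD/p18 had 1 lower than E12. With no floor, where MAS5 signals far below the spikes carry the difference, 3 genes (Fos, Jun and Dusp1) were higher at E16 than at E11. Neurosphere APs then had 4 higher and 3 lower than E12 (median 0.73), 7 higher and 2 lower than NICD/p18 (median 2.26), and 6 higher and 1 lower than E11 (median 2.0005), and NICD/p18 had 3 lower than E12 (median -0.82). A mean over cells of the same name number gave 2 genes higher against E12, and a median over cells gave 1 gene (Jun) higher in NICD/p18 than in E12.

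Single cells decided some counts. With each cell left out in turn, neurosphere APs had 1 to 2 genes higher and 0 to 1 lower than E12: Dusp1 was added without W2G or W2O, and Jun without the first or the third E12 AP. NICD/p18 APs had 0 to 1 gene higher than E12, Jun being added without M6C or the second E12 AP. Held to each cell's own phe spike as deposited, 46 of 50 counts of cells were within 1.5 times, and 4 were not: Fosb in E16 (1 in place of 0), Jund in E16 (7 in place of 1) and in neurosphere APs (1 in place of 0), and Dusp1 in NICD/p18 APs (0 in place of 1). Equal counts can be of other cells: Fos and Nr4a1 were then over in W6D in place of W2O. The correlation of Fos and Jun was 0.59 in E11 alone, where it rests on 1 cell with Fos, and 0.095 without the floor. No paired analysis was possible because replicate numbers were given in accession order and the labels pair no cells. With 3 or 4 cells in a group, the number of arrays limits every comparison.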
